A study of Rattus norvegicus with 12 samples.

Results

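The 10 genes described here mark the mural cells of blood vessels, that is pericytes and vascular smooth muscle, in RNA from rat dorsal root ganglia. They were taken by symbol: Acta2, Myh11, Tagln, Des, Pdgfrb, Cspg4, Rgs5, Notch3, Kcnj8 and Abcc9. All 10 of 10 were listed in each of the 12 libraries and passed the filter on low counts, among 20152 genes listed and 15809 tested. The dorsal root ganglion holds the cell bodies of sensory neurons, and its vessels run among these neurons, glia and connective tissue. There were 4 libraries from rats given oxaliplatin at 2.4 mg/kg in 5.0% glucose, 4 from rats given paclitaxel at 2.0 mg/kg from a DMSO stock diluted with saline, and 4 labelled vehicle. Both drugs are cancer chemotherapies, were given into the peritoneal cavity and served to produce painful neuropathy. The labels do not name the solution that the vehicle rats received, the strain, sex or age of the rats, or the time between injection and collection. With 1 vehicle group and different solvents for the drugs, drug and solvent cannot be told apart. Whether the 4 libraries of a group are from 4 separate rats is not given either, so a p-value measures only the spread between libraries, which may be technical.

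Mural cells wrap the endothelial tube. Pericytes lie along capillaries and smooth muscle around arterioles and larger vessels, where its actin and myosin set the width of the vessel. Endothelial cells secrete the growth factor PDGF-B, which recruits pericytes through the receptor PDGFRB, and they present Notch ligands to NOTCH3 on mural cells. Acta2 encodes smooth muscle actin, Myh11 smooth muscle myosin heavy chain, Tagln the actin-binding protein transgelin and Des the intermediate filament desmin. Cspg4 encodes the proteoglycan NG2 and Rgs5 a regulator of G protein signalling, both widely used pericyte markers. Kcnj8 and Abcc9 encode the pore Kir6.1 and the regulatory subunit SUR2 of the vascular ATP-sensitive potassium channel. None of these genes is confined to mural cells: desmin is abundant in skeletal muscle, NG2 in glial precursor cells and PDGFRB in fibroblasts.

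Library totals ran from 17008728 to 17615736 estimated counts. Acta2 and Abcc9 had fractional counts in 12 of 12 libraries, the mark of reads shared with similar genes, so these 2 genes are uncertain. Myh11 had 3 such libraries, Des 1 and the other 6 genes 0. Levels between genes are given in FPKM, which divides by transcript length, and differences between groups in CPM, counts scaled to library size with edgeR's TMM factors. Vehicle 1 and 3 stood apart from vehicle 2 and 4 for the contractile genes, so the comparisons with vehicle are also given without single vehicle libraries.

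Tagln had the highest level of the 10 genes in all 3 groups, at 49.4 ± 3.79 FPKM in oxaliplatin, 30.8 ± 7.64 in paclitaxel and 32.8 ± 13.5 in vehicle ganglia (SD, n = 4 each). In vehicle ganglia Rgs5 (19.3 ± 5.23 FPKM), Acta2 (16.2 ± 7.81) and Pdgfrb (11.1 ± 1.71) followed. A second tier held Notch3 (4.03 ± 0.853 FPKM), Myh11 (3.83 ± 1.16) and Cspg4 (3.66 ± 0.616), and the lowest tier Kcnj8 (1.42 ± 0.128), Des (1.31 ± 0.277) and Abcc9 (0.838 ± 0.176). Neighbours within a tier overlapped between the 4 vehicle libraries, whereas the lowest Pdgfrb value (8.77 FPKM) was above the highest of Notch3 (5.28), and the lowest Cspg4 value (2.78) above the highest of Kcnj8 (1.54). Among all genes tested, the mean vehicle FPKM of Tagln lay at the 81.8th percentile and that of Abcc9 at the 11.7th. The place of Rgs5 in this order rests on a transcript length of 546 bases in the deposited tables, where Cspg4 has 8074. In counts per library, which do not use length, Rgs5 had 93 to 242 and Cspg4 395 to 730.

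**Figure D1:**
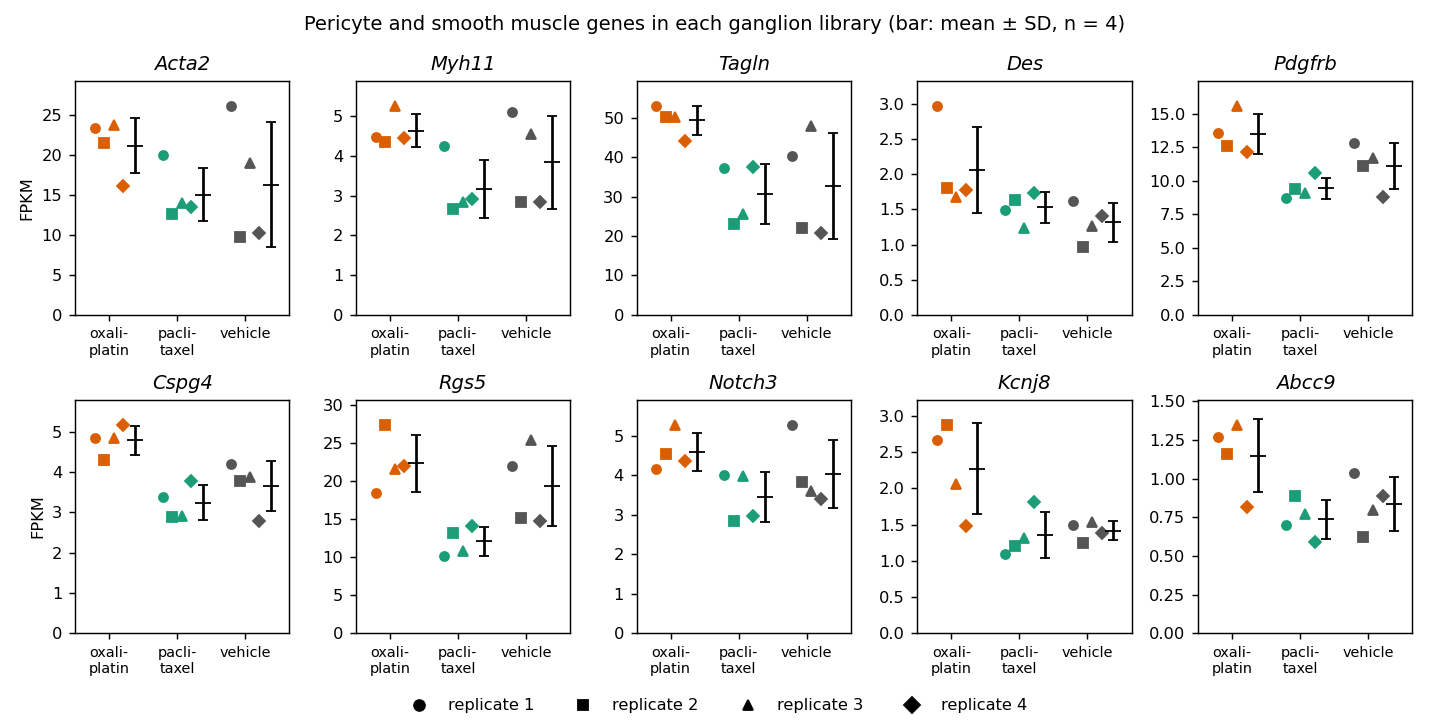
FPKM (y axis, linear, from 0) of the 10 genes in each library, with oxaliplatin, paclitaxel and vehicle from left to right, the marker shape giving the replicate number and the bar the mean ± SD of 4 libraries. The 4 oxaliplatin values lie above all 4 paclitaxel values for Rgs5, Cspg4, Pdgfrb, Tagln, Myh11 and Notch3, and vehicle values of Acta2 spread from 9.74 to 26.1 FPKM. In CPM, Myh11 and Notch3 overlapped between the drug groups.

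All 10 genes were higher in oxaliplatin than in paclitaxel ganglia, by log2 fold changes of 0.32 to 0.81 (median 0.47, against a median of 0.004 over all genes tested), while 50.6% of all genes were higher. Of them 3 passed the quasi-likelihood test of edgeR at a Benjamini-Hochberg adjusted p under 0.05, Rgs5, Cspg4 and Pdgfrb, all pericyte genes and all higher. Over all genes tested in that comparison, 11.3% passed in either direction and 6.6% were higher, so 3 of 10 is read against that background, and 7 of the 10 had an unadjusted p under 0.05, as had 29.4% of all genes. Against vehicle, all 10 genes were higher in oxaliplatin ganglia by 0.15 to 0.65 (median 0.35, all genes 0.01), as were 51.7% of all genes, and 0 passed, where 1.76% of all genes did. An unadjusted p under 0.05 was found for 6 of the 10 genes and for 17.2% of all genes, and DESeq2, limma voom and limma on FPKM each called 0. In paclitaxel ganglia against vehicle, 9 genes were lower, as were 52.1% of all genes, and Des was higher (median -0.13, all genes -0.01), and 0 passed, where 0.12% of all genes did. There the unadjusted p was under 0.05 for Rgs5 alone among the 10 and for 17.1% of all genes, DESeq2 called 0 and limma voom 1, Rgs5. Limma voom called 14.4% of all genes in that comparison. Each pair of these comparisons shares a group of libraries, so their values are not independent of each other. Nor are the 10 genes separate observations: with group means removed, 39 of their 45 pairs were positively correlated over the libraries. In bulk RNA, fewer mural cells and less RNA per mural cell cannot be told apart.

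**Figure D2:**
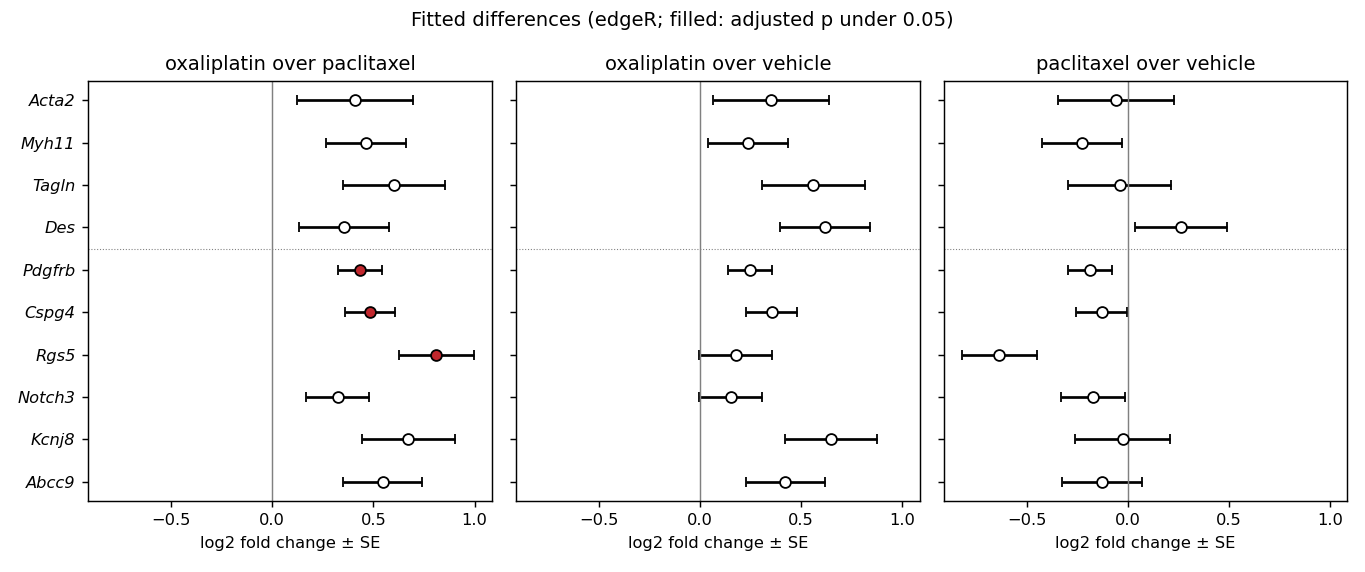
Log2 fold change ± standard error (x axis) of each gene (y axis, contractile genes above the dotted line and pericyte genes below it) for the 3 comparisons, from edgeR's fit of 12 libraries; filled points passed at an adjusted p under 0.05. Only Pdgfrb, Cspg4 and Rgs5 are filled, all in oxaliplatin over paclitaxel.

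Among the contractile genes the libraries of a group differed widely. Acta2 (gene ID 81633) had 32.5, 29.4, 31.9 and 21.9 CPM in oxaliplatin ganglia, 29.8, 18.1, 20.2 and 18.9 CPM in paclitaxel ganglia, and 36.1, 13.8, 26.4 and 14.2 CPM in vehicle ganglia. The vehicle libraries alone spanned the values of both drug groups, with replicates 1 and 3 high and 2 and 4 low. Its log2 fold changes were 0.41 ± 0.29 for oxaliplatin over paclitaxel, 0.35 ± 0.29 for oxaliplatin over vehicle and -0.06 ± 0.29 for paclitaxel over vehicle (adjusted p = 0.366, 0.58 and 0.922, edgeR). The 95% interval of the last difference, -0.71 to 0.59, leaves room for a change in either direction. It turned to 0.26 without vehicle 1 and to 0.03 without vehicle 3, and that of Tagln to 0.07 and 0.20. The 250 bases before the Acta2 start are shown because Acta2 varied with Myh11 and Tagln from library to library, and because RefSeq's promoter table (GRCr8, chr1:241172504-241172753, minus strand) has entries for Acta2 and Des among the 4 contractile genes. Capitals mark matches to the CArG box with 1 G or C in its core, the motif of serum response factor, and to the RBPJ core TGGGAA, the motif of the Notch effector RBPJ.
Acta2 promoter: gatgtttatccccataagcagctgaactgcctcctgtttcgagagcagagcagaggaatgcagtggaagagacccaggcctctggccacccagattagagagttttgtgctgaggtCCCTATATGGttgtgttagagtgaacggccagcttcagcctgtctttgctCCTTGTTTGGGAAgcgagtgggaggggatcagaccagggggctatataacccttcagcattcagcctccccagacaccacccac
The CArG-like matches lay 134 to 125 and 84 to 75 bases before the start, and the RBPJ match 77 to 72 bases before it, overlapping the second of them. On both strands, 6.84% of 33469 promoters of this length held such a CArG-like match, 22.1% the RBPJ core, and 501 promoters a strict CArG box. Of the 7 genes with an entry, Acta2 was the only one with a CArG-like or an RBPJ match, and 0 had a strict CArG box.

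Myh11 (24582) had 29.4, 28.0, 33.3 and 28.3 CPM in oxaliplatin ganglia, 29.8, 18.1, 19.4 and 19.2 CPM in paclitaxel ganglia, and 33.2, 18.9, 30.0 and 18.8 CPM in vehicle ganglia. Oxaliplatin values were the most even, and paclitaxel 1 stood with them above the other 3 paclitaxel libraries. The difference between oxaliplatin and paclitaxel was 0.46 ± 0.20 on the log2 scale (adjusted p = 0.138, edgeR). The Acta2 and Myh11 counts round to the same number in paclitaxel 1 (492) and in paclitaxel 2 (308), while their FPKM values differ (19.9 and 4.24 in paclitaxel 1). Tagln (25123) had 58.7, 54.7, 53.7 and 47.5 CPM in oxaliplatin ganglia, 44.2, 26.2, 29.5 and 41.7 CPM in paclitaxel ganglia, and 44.4, 24.8, 53.0 and 23.1 CPM in vehicle ganglia. All 4 oxaliplatin libraries were above all 4 paclitaxel libraries, while vehicle 3 reached into the oxaliplatin range. Its difference of 0.60 ± 0.25 between the drugs missed the threshold (adjusted p = 0.136, edgeR), and that of oxaliplatin over vehicle was 0.56 ± 0.25 (adjusted p = 0.277).

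Des (64362) was the one contractile gene with a separate pattern. It had 6.41, 3.85, 3.50 and 3.71 CPM in oxaliplatin ganglia, 3.45, 3.64, 2.78 and 3.78 CPM in paclitaxel ganglia, and 3.47, 2.10, 2.75 and 3.04 CPM in vehicle ganglia. All oxaliplatin values were above all vehicle values, by 0.62 ± 0.22 on the log2 scale without passing (adjusted p = 0.174, edgeR), and oxaliplatin 1 was high by itself. Without oxaliplatin 1 the difference was 0.38. Desmin is also a skeletal muscle protein, and 12 of 17 skeletal muscle markers passed the filter, with Myh1, Myh2, Myh4, Tnni2 and Mb below it. Their summed level was 65.4 to 86.2 CPM in oxaliplatin, 48.5 to 60.2 CPM in paclitaxel and 50.2 to 81.6 CPM in vehicle ganglia, and 79.6 CPM in oxaliplatin 1. Their part in the Des values was not tested.

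With the group means removed, the smooth muscle genes varied together over the 12 libraries. Pearson's r was 0.932 for Acta2 with Myh11 (permutation p = 4e-05, adjusted over 45 pairs 0.0018), 0.840 for Myh11 with Tagln (0.00062, adjusted 0.0136) and 0.830 for Acta2 with Tagln (0.00091, adjusted 0.0136). Spearman's rho was 0.909, 0.832 and 0.867 for the same pairs (permutation p = 0.00014, 0.00116 and 0.00051, adjusted 0.0063, 0.0174 and 0.0115). Without the 2 libraries farthest from the median of the first gene, r was 0.901, 0.845 and 0.812. These were the only 3 of the 45 pairs with an adjusted p under 0.05 by either measure. The median r was 0.62 over the 6 pairs of contractile genes, 0.30 over the 15 pairs of pericyte genes and 0.43 over the 24 pairs between them. The points share library depth and scaling. The permutations shuffled the 12 libraries across groups. They took no account of the group means removed or of unequal spread between groups, so these p-values may be too small.

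**Figure D3:**
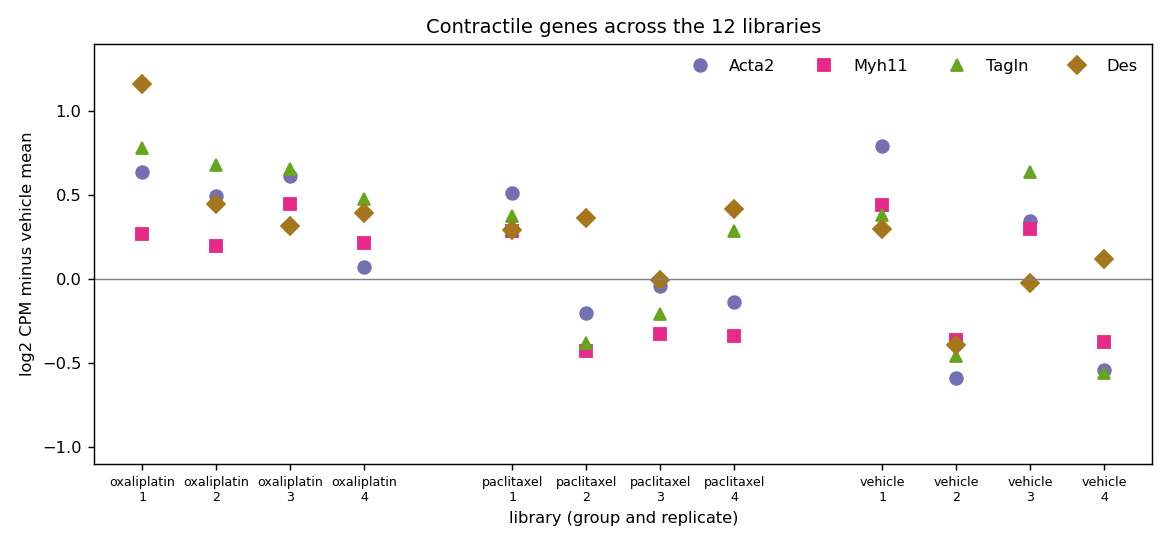
Log2 CPM of the 4 contractile genes minus the mean of the vehicle libraries (y axis) in each of the 12 libraries (x axis, oxaliplatin, paclitaxel, vehicle); each point is 1 gene in 1 library. Acta2, Myh11 and Tagln lie below 0 in vehicle 2 and 4 and above 0 in vehicle 1 and 3, only Tagln of these 3 is above 0 in paclitaxel 4, and Des in oxaliplatin 1 is the highest point.

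Of the 6 pericyte genes, Rgs5, Pdgfrb and Cspg4 had no overlap between the drug groups in CPM, and Notch3, Kcnj8 and Abcc9 did overlap. Rgs5 (54294) had 9.53, 13.9, 10.7 and 11.01 CPM in oxaliplatin ganglia, 5.62, 6.98, 5.80 and 7.32 CPM in paclitaxel ganglia, and 11.3, 7.95, 13.1 and 7.63 CPM in vehicle ganglia. Every paclitaxel library was below every library of the other 2 groups. Rgs5 was 1.75-fold higher in oxaliplatin than in paclitaxel ganglia (log2 fold change 0.81 ± 0.18, adjusted p = 0.0173, edgeR). Its difference between paclitaxel and vehicle was -0.63 ± 0.19 (95% interval -1.05 to -0.22) without passing (adjusted p = 0.203). That interval is for 1 gene, and 3.08% of all genes had 4 paclitaxel libraries below 4 vehicle libraries. Without paclitaxel 4 it was -0.70 with an adjusted p of 0.0444 (edgeR), and by limma voom -0.67 with 0.03, within a range of 0.03 to 0.525 over the 17 alternatives. Of all genes, 10.2% were called without paclitaxel 4 and 14.4% by limma voom, against 0.12% in the main fit. A call of Rgs5 in those settings is read against these shares. Between oxaliplatin and vehicle Rgs5 differed by 0.18 ± 0.18 (95% interval -0.23 to 0.58, adjusted p = 0.666). The Rgs5 promoter (GRCr8, chr13:84380827-84381076, plus strand) is shown as that of the gene with the largest difference between the drugs; none of the 3 motifs was found in it.
Rgs5 promoter: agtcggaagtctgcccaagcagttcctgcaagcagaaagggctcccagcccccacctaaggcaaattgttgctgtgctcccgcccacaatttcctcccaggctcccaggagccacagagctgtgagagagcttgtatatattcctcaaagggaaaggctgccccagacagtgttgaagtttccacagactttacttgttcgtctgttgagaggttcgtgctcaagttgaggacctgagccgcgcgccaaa

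Pdgfrb (24629), the receptor through which pericytes are recruited, had 74.4, 68.1, 82.6 and 64.8 CPM in oxaliplatin ganglia, 51.3, 52.9, 52.1 and 58.2 CPM in paclitaxel ganglia, and 70.0, 61.7, 64.2 and 48.3 CPM in vehicle ganglia. Oxaliplatin and paclitaxel libraries did not overlap, and vehicle 4 lay below all of them. The receptor gene was 1.35-fold higher in oxaliplatin than in paclitaxel ganglia (0.43 ± 0.11, adjusted p = 0.0253, edgeR). Against vehicle the differences were 0.25 ± 0.11 for oxaliplatin and -0.19 ± 0.11 for paclitaxel (adjusted p = 0.263 and 0.368, edgeR). Cspg4 (81651) had 39.4, 34.4, 38.1 and 41.0 CPM in oxaliplatin ganglia, 29.5, 24.1, 24.7 and 31.0 CPM in paclitaxel ganglia, and 34.0, 31.4, 31.5 and 22.7 CPM in vehicle ganglia. All 4 oxaliplatin libraries were above all others of both groups. The gene was 1.398-fold higher in oxaliplatin than in paclitaxel ganglia (0.48 ± 0.13, adjusted p = 0.0278, edgeR), and 0.35 ± 0.12 higher on the log2 scale than in vehicle without passing (adjusted p = 0.163).

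In CPM, 4 of the 10 genes had all oxaliplatin libraries above all paclitaxel libraries, Rgs5, Cspg4, Pdgfrb and Tagln, as had 9.17% of all genes tested. In FPKM the same held for these 4 and for Myh11 (at least 4.35 FPKM in oxaliplatin and at most 4.24 in paclitaxel ganglia) and Notch3 (at least 4.16 and at most 4.01). Myh11 and Notch3 overlapped in CPM. The TMM factors were not applied to FPKM. Log2 ratios of mean FPKM between the drugs exceeded the fitted differences, with 0.55 against 0.46 for Myh11 and 0.41 against 0.32 for Notch3. The share of all genes without overlap in FPKM was not counted, so no result is read from these additions. Over vehicle, all oxaliplatin libraries were above all vehicle libraries in CPM for Des and Cspg4, and for 5.54% of all genes. The 3 calls between the drugs did not hold whichever library was left out. Rgs5 missed the threshold without paclitaxel 1 or 3 (adjusted p = 0.0509 and 0.0581, edgeR). Cspg4 missed it without paclitaxel 2 or 3 or oxaliplatin 1 or 3 (0.0852, 0.0875, 0.0547 and 0.0709). Pdgfrb missed it without paclitaxel 1, 2 or 3 or oxaliplatin 1 or 3 (0.065, 0.0689, 0.0744, 0.0515 and 0.0865). The number of genes called was 1 without paclitaxel 1 or 2 or oxaliplatin 1 or 3, 0 without paclitaxel 3 (edgeR, with 6 at an unadjusted p under 0.05), 4 without paclitaxel 4 and 5 without oxaliplatin 4. The share of all genes called moved too, against 11.3% with all libraries. It was 5.07%, 4.25%, 3.77% and 21.7% without paclitaxel 1, 2, 3 and 4. Without oxaliplatin 1, 2, 3 and 4 it was 7.73%, 5.65%, 3.59% and 14.1%. The log2 fold changes moved little, from 0.70 to 0.88 for Rgs5, 0.43 to 0.55 for Cspg4 and 0.36 to 0.48 for Pdgfrb.

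Notch3 (56761), the mural cell Notch receptor, had the smallest difference of the 10 genes in both oxaliplatin comparisons. It had 30.7, 32.9, 37.6 and 31.2 CPM in oxaliplatin ganglia, 31.7, 21.5, 30.6 and 22.0 CPM in paclitaxel ganglia, and 38.7, 28.8, 26.6 and 25.0 CPM in vehicle ganglia. The 3 groups overlapped, with vehicle 1 the highest library of all. The differences were 0.32 ± 0.16 for oxaliplatin over paclitaxel and 0.15 ± 0.16 for oxaliplatin over vehicle (adjusted p = 0.184 and 0.666, edgeR).

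The 2 channel subunit genes were low and higher in oxaliplatin ganglia without passing. Kcnj8 (25472) had 4.16, 4.42, 3.11 and 2.25 CPM in oxaliplatin ganglia, 1.81, 1.94, 2.13 and 2.85 CPM in paclitaxel ganglia, and 2.31, 1.99, 2.40 and 2.18 CPM in vehicle ganglia. Oxaliplatin 4 lay among the other groups and the other 3 oxaliplatin libraries above them. Its differences were 0.67 ± 0.23 over paclitaxel and 0.65 ± 0.23 over vehicle (adjusted p = 0.0717 and 0.166, edgeR), and without oxaliplatin 4 or paclitaxel 4 it passed between the drugs. Abcc9 (25560, uncertain) had 8.43, 7.58, 8.70 and 5.34 CPM in oxaliplatin ganglia, 5.02, 6.16, 5.39 and 4.01 CPM in paclitaxel ganglia, and 6.93, 4.21, 5.32 and 5.97 CPM in vehicle ganglia. Oxaliplatin 4 was again the low library of its group. The differences were 0.55 ± 0.20 over paclitaxel and 0.42 ± 0.19 over vehicle (adjusted p = 0.0845 and 0.286, edgeR), and between the drugs Abcc9 passed without oxaliplatin 4. Within groups the 2 subunit genes were not closely tied (r = 0.258, permutation p = 0.422, adjusted 0.593; rho 0.175). The other channel pair, Kcnj11 and Abcc8, which form the channel of beta cells and neurons, had -0.10 ± 0.14 and -0.10 ± 0.13 between the drugs (adjusted p = 0.664 and 0.643). These 2 genes were named after their values were seen.

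Of 17 other smooth muscle contractile genes tested, 16 were higher in oxaliplatin than in paclitaxel ganglia (median 0.35), with 2 called higher and 1 lower, and Myocd, the smooth muscle coactivator myocardin, was below the filter. Over all genes in that comparison, 50.6% were higher and 11.3% were called in either direction. Smtn, encoding smoothelin of contractile smooth muscle, rose to 61.9 ± 4.72 CPM in oxaliplatin ganglia, against 42.2 ± 3.62 in paclitaxel ganglia (0.55 ± 0.09, adjusted p = 0.00537, edgeR). It was also called over the 40.1 ± 4.205 CPM of vehicle ganglia (0.63 ± 0.09, adjusted p = 0.00537), the 1 gene of 17 called in that comparison, where 1.76% of all genes were. Smtn kept both calls whichever library was left out, but its counts were not whole in 12 libraries, so it is uncertain. Tpm2, beta-tropomyosin, was called higher between the drugs (0.62 ± 0.17, adjusted p = 0.0346) and Tpm1, alpha-tropomyosin, lower (-0.23 ± 0.06, adjusted p = 0.0321), and each lost its call without paclitaxel 1, 2 or 3 or oxaliplatin 1, 2 or 3 (adjusted p up to 0.11 and 0.0821). Both calls were also lost with 2 groups only. Tpm1 lost its call in 3 limma fits on FPKM as well, with -0.14 on the log2(FPKM + 1) scale (adjusted p up to 0.147). In paclitaxel over vehicle 10 of the 17 were lower and 0 were called (2 at an unadjusted p under 0.05). Over all genes, 52.1% were lower and 17.1% had an unadjusted p under 0.05 (edgeR), so these counts are near the background.

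Between the drugs, 50.6% of all genes were higher in oxaliplatin and 11.3% were called in either direction. Of 13 other pericyte genes a smaller share was called: 8 were higher in oxaliplatin than in paclitaxel ganglia (median 0.16) and 1 passed. That was Anpep, the aminopeptidase CD13 of pericytes and myeloid cells, with 19.4 ± 4.22 CPM in oxaliplatin and 8.61 ± 1.10 CPM in paclitaxel ganglia (1.17 ± 0.25, adjusted p = 0.0128, edgeR), a call kept whichever library was left out. Over vehicle, 10 of these 13 were higher in oxaliplatin and 5 in paclitaxel ganglia, with 0 called in each (1 and 0 at an unadjusted p under 0.05, edgeR). Of all genes, 51.7% were higher in oxaliplatin and 52.1% lower in paclitaxel ganglia. An unadjusted p under 0.05 was found for 17.2% and 17.1% of them (edgeR). In the PDGF and mural cell recruitment list, 10 of 14 were higher in oxaliplatin than in paclitaxel ganglia (median 0.28) and 6 were called, all higher. Eng, the TGF-beta coreceptor endoglin of endothelium, had 53.3 ± 5.80 CPM in oxaliplatin, 30.1 ± 3.28 CPM in paclitaxel and 33.2 ± 8.48 CPM in vehicle ganglia. It was called between the drugs (0.83 ± 0.15, adjusted p = 0.00801, edgeR) with every library left out in turn, and over vehicle (0.68 ± 0.15, adjusted p = 0.0413), where the call was lost without vehicle 1, 2 or 4 or oxaliplatin 1, 2 or 3 (adjusted p up to 0.133), with 2 groups only and by limma on unfiltered FPKM. The endothelial receptor genes Acvrl1 (0.80 ± 0.16) and Tek (0.54 ± 0.14), both uncertain from shared reads, and Tgfbr2, a TGF-beta receptor (0.41 ± 0.09), were called between the drugs too (adjusted p = 0.0109, 0.0265 and 0.0171). Tek lost its call without paclitaxel 1 or 3 or oxaliplatin 1 or 3 (adjusted p up to 0.0824), and Tgfbr2 without paclitaxel 3 or oxaliplatin 3 (up to 0.0573). Pdgfb, encoding the ligand of PDGFRB and named after its values were seen, had -0.06 ± 0.13 between the drugs and -0.13 ± 0.13 for oxaliplatin over vehicle (adjusted p = 0.789 and 0.668). The ligand gene thus did not pass where the gene of its receptor did, and the difference between the 2 genes was not tested.

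Of 12 Notch genes other than Notch3, 8 were higher in oxaliplatin than in paclitaxel ganglia (median 0.18) and 1 was called, the receptor gene Notch2 (0.48 ± 0.12, adjusted p = 0.0235, edgeR), which lost its call without paclitaxel 1, 2 or 3 or oxaliplatin 2 or 3 (up to 0.0807). With 1 call the Notch list was below the 11.3% of all genes called between the drugs, where 50.6% were higher. In paclitaxel over vehicle 11 of the 12 were lower (median -0.15), as were 52.1% of all genes, with 0 called. An unadjusted p under 0.05 was found for 4 of them, 1 higher and 3 lower, and for 17.1% of all genes (edgeR). Of 12 genes of vascular tone, 7 were higher in oxaliplatin than in paclitaxel ganglia (median 0.15) and 3 were called, all higher. They were Gucy1a3 (0.82 ± 0.20) and Gucy1b3 (0.43 ± 0.12), the subunits of the nitric oxide receptor guanylyl cyclase, and Agtr1a, an angiotensin II receptor (0.81 ± 0.19), with adjusted p = 0.0232, 0.04 and 0.0211. All 3 lost the call without paclitaxel 1, 2 or 3, Gucy1a3 also without oxaliplatin 3, Agtr1a without oxaliplatin 2 and Gucy1b3 without oxaliplatin 1, 2 or 3 (adjusted p up to 0.0792, 0.0617 and 0.138). Gucy1b3 lost it as well with no expression filter and with 2 groups only. Their levels were 11.97 ± 2.22, 7.63 ± 0.917 and 4.38 ± 0.965 CPM in oxaliplatin ganglia, against 6.78 ± 1.65, 5.66 ± 0.203 and 2.495 ± 0.157 CPM in paclitaxel ganglia. In paclitaxel over vehicle 9 of these 12 were lower, with 0 called. The 7 genes of vascular tone at an unadjusted p under 0.05 were 3 higher and 4 lower, against 17.1% of all genes (edgeR).

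Endothelial genes were also higher in oxaliplatin than in paclitaxel ganglia, a comparison where 50.6% of all genes were higher and 11.3% were called. All 12 endothelial markers were higher in oxaliplatin than in paclitaxel ganglia (median 0.55) and 6 were called, among them Emcn, an endothelial sialomucin (0.96 ± 0.20), Kdr, the VEGF receptor (0.42 ± 0.11), Esam, a junction protein (0.48 ± 0.13), and Erg, an endothelial transcription factor with shared reads (0.84 ± 0.23), with adjusted p = 0.0114, 0.0289, 0.0295 and 0.0315 (edgeR). Emcn kept its call whichever library was left out. Kdr, Esam and Erg lost theirs without paclitaxel 1, 2 or 3 or oxaliplatin 2 or 3, and Esam also without oxaliplatin 1 (adjusted p up to 0.0778, 0.0934 and 0.0938). Kdr lost it with 2 groups only too (0.0701). Over vehicle, 11 of the 12 were higher in oxaliplatin ganglia and 0 were called (6 at an unadjusted p under 0.05, edgeR, as had 17.2% of all genes). In paclitaxel over vehicle 11 of the 12 were lower and 0 were called (3 at an unadjusted p under 0.05, edgeR, as had 17.1% of all genes). The summed level of the 12 markers was 346 to 401 CPM in oxaliplatin ganglia and 239 to 283 CPM in paclitaxel ganglia, and in vehicle ganglia 334, 234, 370 and 233 CPM, high in replicates 1 and 3. The summed contractile genes were 127, 116, 122 and 101 CPM in oxaliplatin ganglia, 107, 65.9, 71.9 and 83.6 CPM in paclitaxel ganglia and 117, 59.7, 112 and 59.2 CPM in vehicle ganglia. Vehicle 1 and 3 were thus the high libraries for both kinds of vessel cell. Among paclitaxel libraries the order differed. Paclitaxel 1 had the highest contractile sum but 240 CPM of endothelial markers, against 283 CPM in paclitaxel 4. Whether the sums varied together was not tested. Divided by the endothelial sum, the 10 mural genes gave 0.691 to 0.803 in oxaliplatin ganglia, 0.689 to 0.967 in paclitaxel ganglia and 0.691 to 0.840 in vehicle ganglia. These ranges overlapped. Divided by the fibroblast sum, the 10 genes gave 0.0621 to 0.0836 in oxaliplatin ganglia (median 0.0668), 0.0749 to 0.0978 in paclitaxel ganglia (median 0.0811) and 0.0580 to 0.0821 in vehicle ganglia (median 0.0643). By that ratio 3 of the 4 oxaliplatin libraries lay below all paclitaxel libraries, the opposite order to the levels themselves. No test was made of either ratio.

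**Figure D4:**
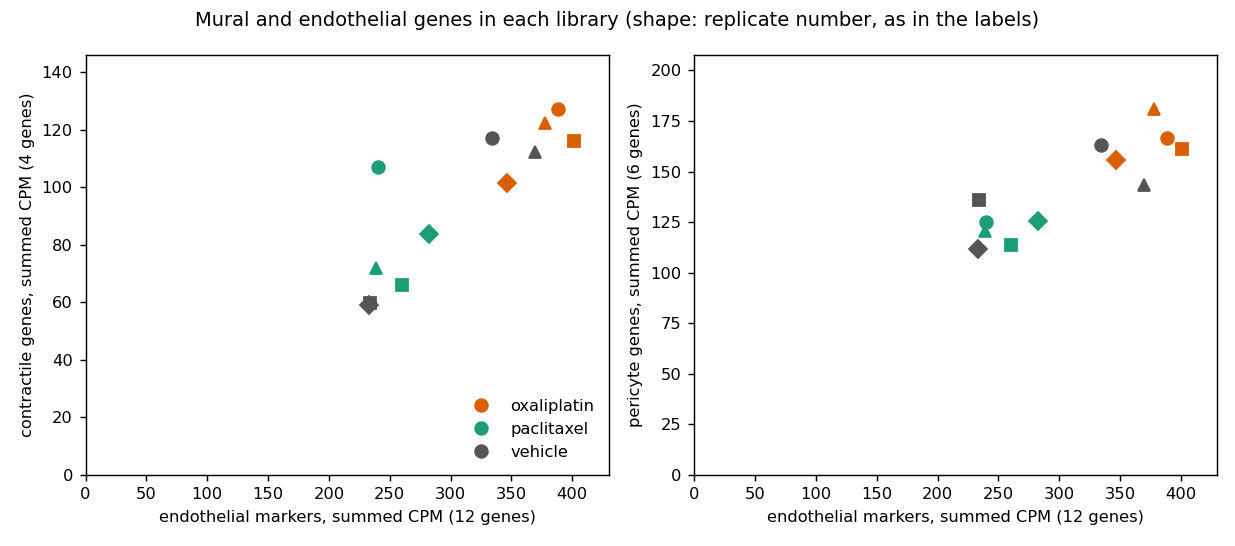
Summed CPM of the 4 contractile genes (left) and of the 6 pericyte genes (right) against summed CPM of 12 endothelial markers (x axis), 1 point per library, coloured by group and shaped by replicate number. Oxaliplatin points lie at 346 to 401 CPM of endothelial markers, above all paclitaxel points (239 to 283 CPM), and the 4 vehicle points fall near both groups.

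Markers of other cells also differed between the drugs, and their part in the mural values was not tested. Over all genes in that comparison, 50.6% were higher, 11.3% were called and 29.4% had an unadjusted p under 0.05 (edgeR). All 10 fibroblast markers were higher in oxaliplatin than in paclitaxel ganglia (median 0.81) and 7 were called, with summed levels of 3628 to 4467 CPM in oxaliplatin, 2219 to 2776 in paclitaxel and 2708 to 3903 in vehicle ganglia. Col3a1, a collagen, had the smallest p of the list, with a difference close to the median (0.81 ± 0.13, adjusted p = 0.0037, edgeR), and Fn1, fibronectin, had 0.91 ± 0.15 (adjusted p = 0.00448). Adipocyte markers (9 of 9 tested higher, 7 called) summed to 69.4 to 135 CPM in oxaliplatin, 39.2 to 59.4 in paclitaxel and 48.6 to 77.5 in vehicle ganglia, and erythroid markers (13 of 13 higher, 11 called) to 5082 to 17095, 1198 to 2975 and 2363 to 4493 CPM in those groups. Macrophage markers (7 of 7 higher, 2 called) summed to 106 to 152 CPM in oxaliplatin, 50.5 to 98.0 in paclitaxel and 116 to 204 in vehicle ganglia. Skeletal muscle markers were higher in 9 of 12, with 2 called, Myh7 and Tnnt3 (0.78 ± 0.17 and 1.51 ± 0.41, adjusted p = 0.0144 and 0.0317). Myh7, uncertain from shared reads, lost its call without oxaliplatin 3 (0.0513) and Tnnt3 without paclitaxel 1, 2 or 3 or oxaliplatin 1 or 3 (up to 0.0958). All 10 sensory neuron markers were lower in oxaliplatin than in paclitaxel ganglia and 5 were called, with sums of 11414 to 14255 CPM in oxaliplatin, 15897 to 21078 in paclitaxel and 14649 to 16471 in vehicle ganglia. Of 5 Schwann cell and 4 satellite glial markers, 5 and 3 were higher and 0 were called (1 and 0 at an unadjusted p under 0.05, edgeR). No marker of these lists was at 0 in all libraries of a group.

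The genes whose profile over the 12 libraries was most like the mean standardised profile of the 4 contractile genes, among 12787 searched, were Plvap (Pearson's r = 0.946), Tle2 (0.914), Mknk2 (0.908), Zc3h12a (0.908) and Tinagl1 (0.906). Plvap encodes a protein of endothelial fenestrae and is not a mural gene. For the 6 pericyte genes they were Kat6b (0.944), Srrm1 (0.937), Rfx2 (0.934), Fmnl3 (0.934) and Galnt2 (0.934). These are the extremes of a search, with group differences and depth shared by all 12 points, and no p is given.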

How the data were processed

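Total RNA from flash-frozen rat ganglia was made into 12 libraries, per the labels' protocols, which do not say whether strand was kept. Per the file headers, each deposited table gives an expected count, which need not be whole, and an FPKM per gene. CASAVA 1.4 and Bowtie2 are listed in the submitters' processing notes, while genome build and quantification tool are not given in the sources used here. Where a table lacked a gene, its value was set to 0 (the lowest FPKM listed was 0.01). Of NCBI gene IDs, 18549 (92.0%) were found in RefSeq's GRCr8 gene table, used for names and promoters only.

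For tests, expected counts were rounded to whole numbers and passed to edgeR 4.0.16 under R 4.3.3 (default filter, TMM factors, robust quasi-likelihood fit of 3 group means, 9 residual degrees of freedom, Benjamini-Hochberg adjustment over 15809 genes). Tests were two-sided with a threshold of 0.05. Standard errors were derived from the log2 fold change and F statistic of each test. The intervals given are 95% t intervals with those 9 degrees of freedom, for each gene alone. The test also draws on the spread of other genes, so interval and p-value can differ. For Tagln in oxaliplatin over vehicle the unadjusted p was 0.0455 (edgeR) and the interval -0.009 to 1.13. The 10 genes and the gene lists were chosen with earlier results of these data known, so lists are described by counts and medians beside all genes, with no test. Named were the 10 genes and, from each list, up to 4 called genes by smallest p, of which some are not described. Correlations used log2 CPM (prior count 2) with group means removed and 100000 permutations. The scripts were tested on simulated data. No 2 libraries of a group agreed within sampling noise (chi-square per gene 8.07 to 44.9). Depth allows the precision of 4 libraries a group, with a square root of the common dispersion of 0.159. Alternatives were DESeq2 1.42.0, limma 3.58.1 (voom with quality weights, and log2 of FPKM plus 1 or 0.1), other factors or filter, 2 groups only, the replicate number as a block, and leaving out each library.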

Additional observations from a re-analysis of the deposited data

Results flagged for a closer look

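Myh11 in paclitaxel 1 had 29.8 CPM, far from the other 3 paclitaxel libraries (18.1 to 19.4 CPM), with a gap of 0.885 of the range of the group past the 95% critical value of Dixon's test. Des in oxaliplatin 1 had 6.41 CPM, far from the other 3 oxaliplatin libraries (3.50 to 3.85 CPM), with a gap of 0.881 of the range. These were 2 of 30 groups of 4 libraries examined, and chance flags about 1 in 20.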

How the results depend on the processing

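Over 17 alternatives for each of 30 fitted differences of the 10 genes, 474 of 510 values kept their direction and their side of the threshold, 12 lost a call, 11 gained one and 13 changed sign. All 13 were uncalled differences near 0 of paclitaxel over vehicle. Acta2 turned to 0.26 without vehicle 1, 0.03 without vehicle 3, 0.02 without paclitaxel 2, 0.0024 without paclitaxel 4 and 0.0093 with the replicate block. Tagln turned to 0.07 without vehicle 1, 0.20 without vehicle 3, 0.08 without paclitaxel 2, 0.04 without paclitaxel 3 and 0.0033 with the block. Kcnj8 turned to 0.02 without vehicle 3, 0.053 without paclitaxel 1 and 0.03 without paclitaxel 2. Without single libraries these differences ranged from -0.25 to 0.26 for Acta2, -0.20 to 0.20 for Tagln and -0.18 to 0.053 for Kcnj8. All 51 medians over the 10 genes moved by less than the spread between libraries (0.20 on the log2 scale), and the median of all genes stayed within -0.06 to 0.08. For paclitaxel over vehicle that spread is larger than the median itself (-0.13), so the check cannot show that this median is stable. It ranged from -0.23 to -0.01 without single libraries and from -0.24 to -0.10 under the other alternatives.

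For oxaliplatin over paclitaxel, the genes called among the 10 numbered 3, with 6 by limma voom and 0 to 5 without single libraries. Limma voom called 30.3% of all genes in that comparison, against 11.3% by edgeR. For paclitaxel over vehicle 0 became 1 by limma voom and 0 to 1 without single libraries, and for oxaliplatin over vehicle it was 0 under each of 17 alternatives. Over all genes, paclitaxel over vehicle gave 19 calls, 238 by DESeq2, 2271 by limma voom and 10 to 1631 without single libraries, the last without paclitaxel 4. Oxaliplatin over vehicle gave 278, 904 by DESeq2, 631 by limma voom, 161 with 2 groups only, 72 with the replicate block and 49 to 242 without single libraries. Oxaliplatin over paclitaxel gave 1788, 2782 by DESeq2, 4796 by limma voom, 1016 with 2 groups only, 986 with the block and 571 to 3463 without single libraries. By limma on log2(FPKM + 1) the split of calls shifted, to 1507 higher and 277 lower for oxaliplatin over paclitaxel (1044 and 744 by edgeR) and to 256 higher and 74 lower for oxaliplatin over vehicle (166 and 112 by edgeR). Fits with 2 groups or fewer libraries hold fewer samples, and the cause of the other differences was not tested.

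Over all genes tested, replicate numbers did not pair the libraries: same-numbered libraries of 2 groups had correlations of their deviations between -0.23 and 0.16. For Acta2 and Myh11, however, replicates 1 and 3 lay above replicates 2 and 4 in each group. Their standard errors for paclitaxel over vehicle fell with the block, from 0.29 to 0.18 for Acta2 and from 0.20 to 0.15 for Myh11 (edgeR). The cause of this was not tested. With the replicate block, Rgs5 and Pdgfrb kept their calls between the drugs (adjusted p = 0.0447 and 0.0486) and Cspg4 did not (0.0536, edgeR). Of the other genes named as called, Tpm1, Tpm2, Gucy1b3, Esam and Erg between the drugs and Eng in oxaliplatin over vehicle also missed the threshold with the block.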
